A study of Mus musculus with 11 samples.

Results

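The Mu class glutathione S-transferases, Gstm1 to Gstm7, were examined in aortas of old nitrate treated mice and old control mice. All mice were male C57BL/6, aged 20 months and fed standard chow. Nitrate treated mice received 1 g/L sodium nitrate (NaNO3) in the drinking water for 8 weeks (n = 5). The control samples (n = 6) are labelled as control and as reanalysed arrays of an earlier series, and the study's methods name sodium chloride as the control drink. The labels do not say if treated and control mice were studied together. Each array held the RNA of the whole descending aorta of 1 mouse, flushed and cleaned of surrounding fat, so the values are sums over all cell types of the vessel. Members were all non-control probes whose gene name was Gstm1 to Gstm7. These were 7 of the 36413 names given to probes, read by 15 of the 55681 probes on the array.

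Glutathione S-transferases join the tripeptide glutathione to reactive, fat-soluble molecules. The conjugates are then pumped out of the cell and trimmed to mercapturic acids for excretion. Mu class enzymes are cytosolic and work as dimers, and in mice they are known for inducible expression in the liver and for the removal of epoxides and aldehydes formed during lipid oxidation. Mu class genes are neighbours and have closely related sequences, so it matters which stretch of which transcript a probe reads.

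The 15 probes are DNA strands of 60 bases. In the mm9 build named in the files, 14 of them were placed on chromosome 3, from base 107701101 of the Gstm5 probe to base 107846847 of a Gstm4 probe. The remaining probe, named Gstm1 in the files, was placed on chromosome 5 at chr5:117082490-117082549, and 2 of the transcripts listed for it are predicted RNAs. Which copies of the sequence it reads was not tested, and its values are given under that limit. In what follows a probe is named by the base of its listed transcript at which it starts. The files do not mark coding ends. The probes for Gstm3, Gstm4 and Gstm7 that start at bases 321, 326 and 395 cover genomic intervals of 1260, 353 and 1175 bases, so they cross introns and read spliced RNA.

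The closest relatives among the probes were the 3 that read the same part of the Gstm3, Gstm6 and Gstm7 transcripts. They are shown in full so that the differences between the genes can be seen, and how far a probe reads the RNA of another member was not tested. Capitals mark runs of at least 8 bases shared with another of the 3.
Gstm3 base 321: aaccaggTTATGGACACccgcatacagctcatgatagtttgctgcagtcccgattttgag
Gstm6 base 415: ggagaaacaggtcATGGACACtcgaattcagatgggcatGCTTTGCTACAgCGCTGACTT
Gstm7 base 395: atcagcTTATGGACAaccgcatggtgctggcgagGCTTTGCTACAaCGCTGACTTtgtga

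The Gstm6 and Gstm7 probes matched at 74.5% of 55 aligned bases, and their longest shared run was 11 bases. Gstm3 matched Gstm7 at 67.8% of 59 bases and Gstm6 at 69.6% of 56 bases. A Gstm1 and a Gstm2 probe that share a run of 11 bases are shown next, by the 30 bases that end at AAGTAG in each, with the run in capitals.
Gstm1 base 807: tCAAAGATGGCCcactggagtaacaagtag
Gstm2 base 659: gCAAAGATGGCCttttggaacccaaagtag

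Gstm4 is read by a probe that starts at base 326 of its transcript and another that starts at base 1133, and the values of this pair differed most within a gene. They are therefore shown as well, the first whole and the second by its first 30 bases.
Gstm4 base 326: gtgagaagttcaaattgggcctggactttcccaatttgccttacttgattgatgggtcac
Gstm4 base 1133: tccccatgcttgtctggagaccagagacgg

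Signals are given on the log2 scale after quantile normalization over the 11 arrays, and differences are nitrate minus control on that scale. Detection required a found spot whose signal stood well above background, on 5 or more arrays of one group. In all, 23632 probes were detected, among them 11 of the 15 Mu class probes, with at least 1 for each of the 7 genes. Arrays were alike, with correlations between 0.98156 and 0.99514, no saturated spot, and at most 186 flagged of 59305 spots. Adipocyte markers were lower in nitrate treated mice for 15 of 15 genes, where 46.2% of all detected probes were lower. By the limits given below 9 of them were called lower, where 4.62% of all detected named genes were. Brown adipocyte markers were mixed, with 3 of 6 lower and 1 called, lower. The mean of the adipocyte list, centred on all arrays, ranged from -0.52 to -0.03 in nitrate treated mice and from -0.13 to 0.62 in controls, with control mouse 1 highest. The mean of 8 smooth muscle markers ranged from -0.03 to 0.19 against -0.33 to 0.01, with control mouse 1 lowest. Smooth muscle, endothelial and fibroblast markers, which define the labelled tissue, were detected for every listed gene. Cardiac muscle markers were far higher in nitrate mouse 4 and control mouse 1 than in the other mice. Less RNA per cell and fewer cells of a type cannot be told apart in whole vessels. The 6 control arrays shared 1 slide column in which no nitrate array lay, and column and treatment cannot be told apart.

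No detected Mu class probe passed the test between nitrate treated and control mice. A probe was called when its unadjusted P value lay under 0.05 and its fold change exceeded 1.2. By these limits 0 of the 11 detected probes were called by limma, where 9.00% of all detected probes were called. At an unadjusted P value under 0.05 with any fold the count was also 0, against 14.4% of all detected probes. The smallest P value of a detected Mu class probe was 0.0748, and the smallest Benjamini-Hochberg adjusted P value was 0.397, where 0.0127% of all detected probes fell under 0.05 after adjustment. The nitrate value was the lower for 6 of the 11, where it was the lower for 46.2% of all detected probes. Their median difference was -0.04, and 0.014 over all detected probes. With each gene taken by its probe of highest mean signal the median was 0.012. Gstm1 enters there by its chromosome 5 probe (0.13), where its probe at base 807 gave -0.04. The sign of that median rests on this choice. At no probe were the groups free of overlap, where 2.75% of detected probes were.

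The size of change that these arrays leave possible differs by probe. The 95% intervals of 4 of the 11 detected probes lay wholly within a fold change of 1.2 in either direction. The tightest outer bound was 1.14-fold, for Gstm4 at base 326, and the widest was 1.41-fold, for Gstm6 at base 978.

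**Figure D1:**
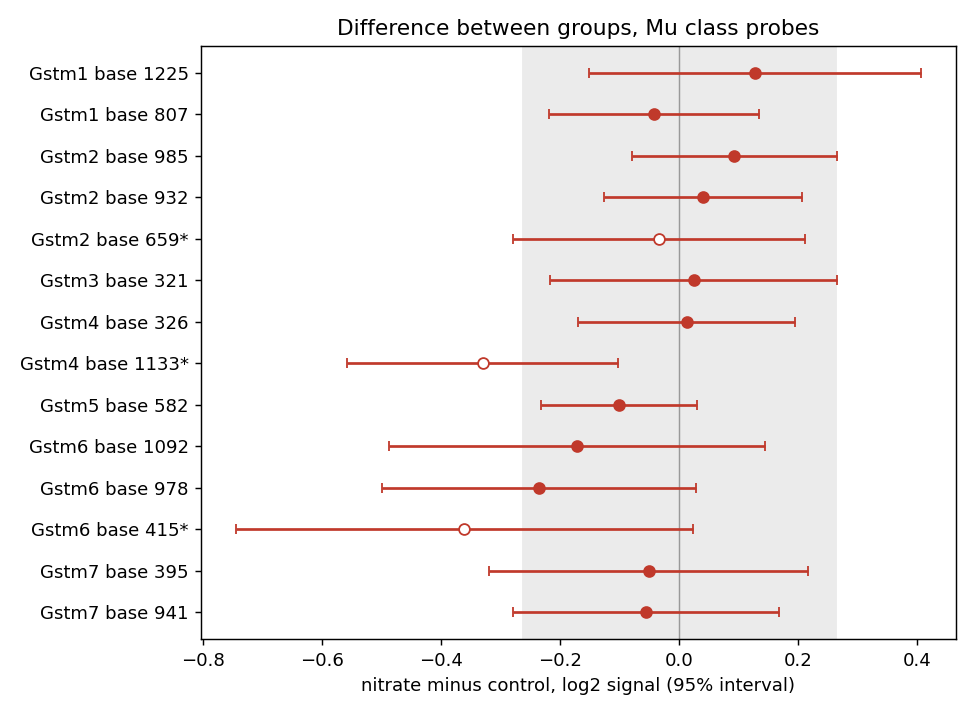
Nitrate minus control difference in log2 signal (horizontal axis) with its 95% interval for 14 Mu class probes, named by gene and starting base (vertical axis). Filled points were detected, open points with an asterisk were not, and grey marks fold changes below 1.2. Intervals of all 11 detected probes cross 0, and that of Gstm4 at base 1133 does not. The Gstm3 probe at base 1125, not well above background on any array, is left out.

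Gstm1 codes for a main Mu class subunit of mouse liver. Its probe at base 807, chr3:107815595-107815654 on the minus strand, gave 12.90, 12.74, 12.72, 12.62 and 12.51 in the nitrate treated mice. It gave 12.56, 12.87, 12.74, 12.77, 12.71 and 12.79 in the controls. The groups lay over each other, with nitrate mice 1 and 5 at the top and bottom of all 11. The difference was -0.04 with a standard error of 0.081 (adjusted P = 0.854 by limma), and it was -0.19 with the adipocyte mean as a covariate, below the fold limit. The chromosome 5 probe named Gstm1, at base 1225, gave 13.48 to 13.73 in nitrate treated mice and 13.02 to 13.90 in controls. Its difference was 0.13 with a standard error of 0.13, and control mice 1 and 3 held both ends of its range. Without control mouse 1 the difference was 0.038, and without control mouse 3 it was 0.21. Across the 11 mice these probes did not move together (r = 0.045, P = 0.898; rho = -0.30, P = 0.372, permutation tests), and r was -0.71 without control mice 1 and 3.

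Gstm2 has the brightest probe of the class, at base 985 (chr3:107784622-107784681, minus strand). Nitrate treated mice gave 14.01, 14.07, 13.90, 14.01 and 13.83 there. Controls gave 13.61, 13.95, 13.89, 13.86, 13.96 and 13.96. The nitrate mean was 0.093 higher with a standard error of 0.079 (exact permutation P = 0.249), and control mouse 1 lay below the rest. Without that mouse the difference was 0.04. The neighbouring Gstm2 probe at base 932 differed by 0.04 (standard error 0.076). Its values followed those of base 985 across the mice (r = 0.82, P = 0.0018; rho = 0.64, P = 0.0395), and r was 0.45 without control mouse 1 and nitrate mouse 5. The Gstm2 probe at base 659 stood clear of background on each array but had its spot found on 1 of 5 and 4 of 6 arrays. Outside the detection rule its difference was -0.03 (exact permutation P = 0.794).

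Gstm3 was read by the probe at base 321, chr3:107769290-107770549 on the minus strand. Nitrate treated mice gave 12.06, 11.87, 11.92, 11.58 and 11.41. Controls gave 11.65, 11.87, 11.69, 11.78, 11.68 and 11.79. The nitrate values reached both above and below all controls, with a standard deviation of 0.27 against 0.086, and the means differed by 0.024. The other Gstm3 probe, at base 1125, was not well above background on any array in either group, so no fold is given for it.

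**Figure D2:**
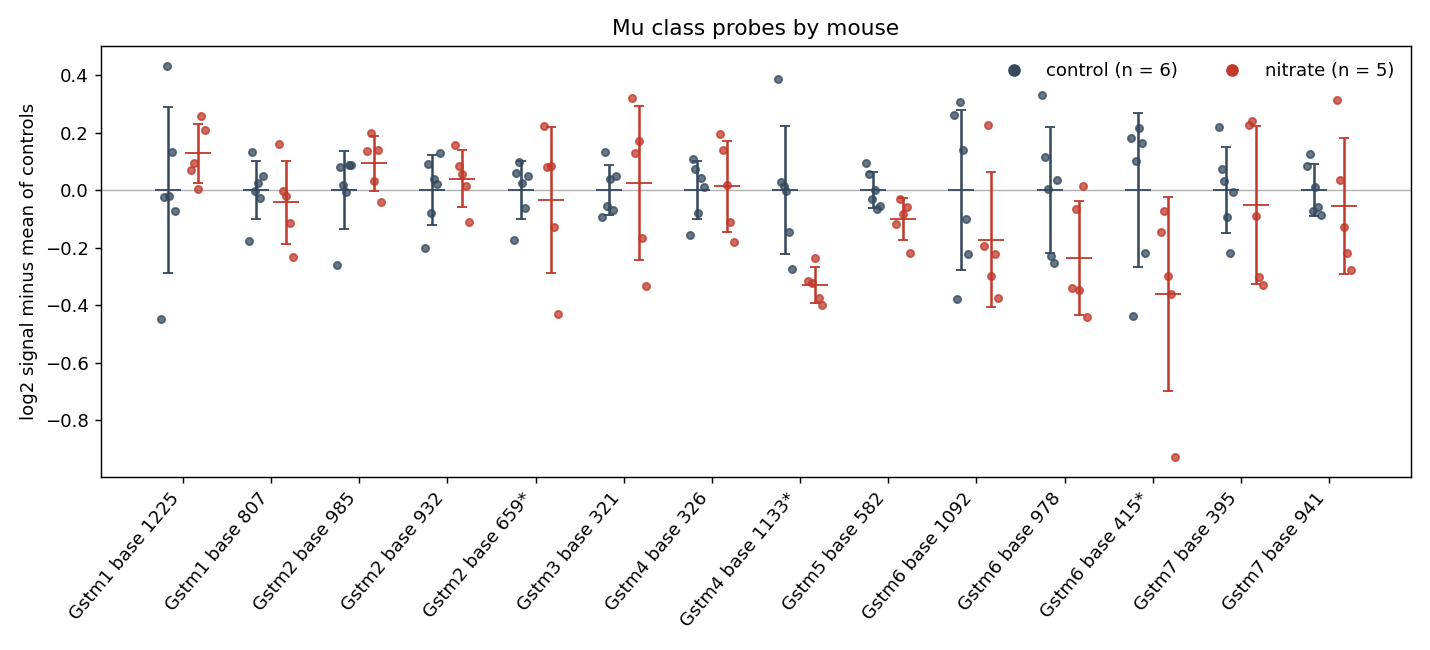
Log2 signal of 14 Mu class probes in each mouse minus the mean of the controls of that probe (vertical axis), by gene and starting base (horizontal axis). Blue points are the 6 controls, red points the 5 nitrate treated mice, and bars show means with standard deviations. Groups overlap at every probe, and an asterisk marks probes outside the detection rule.

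Gstm4 has a pair of probes whose values parted. The study lists this gene as lower after nitrate and names no probe. It was chosen there on these same samples, so its values are no independent evidence of a direction. Of its probes here only that at base 1133 had a lower nitrate mean, and that probe was outside the detection rule. The probe at base 326, chr3:107846495-107846847 on the minus strand, gave 10.60, 10.54, 10.42, 10.29 and 10.22 in nitrate treated mice. Controls gave 10.25, 10.51, 10.48, 10.32, 10.45 and 10.41. Its difference was 0.012 with a standard error of 0.084 (adjusted P = 0.967 by limma), and its 95% interval ran from -0.17 to 0.19.

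The Gstm4 probe at base 1133, chr3:107843802-107843861 on the minus strand, gave 8.22, 8.21, 8.30, 8.16 and 8.14 in nitrate treated mice. Controls gave 8.92, 8.56, 8.55, 8.53, 8.39 and 8.26. Nitrate treated mice lay close together and below 5 of the 6 controls, and control mouse 6 lay under nitrate mouse 3. The difference was -0.33 with a standard error of 0.10 (unadjusted P = 0.00885 in a limma fit over all probes, exact permutation P = 0.00866), a fall of 1.26-fold. Its signal exceeded background clearly on each of the 11 arrays, but the scanner software found its spot on only 1 of 5 nitrate and 2 of 6 control arrays. It is therefore not among the detected probes. When the spot did not have to be found, 14 Mu class probes and 26161 probes in all were detected. This rule was chosen after these values were seen. The base 1133 probe was then the 1 Mu class probe called, and the share of all probes called under this rule is not given. Under the main rule 9.00% of detected probes were called, and 1 call among 14 is not read as a result.

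The gap between the Gstm4 probes, 0.34 on the log2 scale, was itself tested. Its exact permutation P value was 0.0216, and 0.217 after adjustment over the 10 pairs of probes that share a gene. Across the mice the pair had r = -0.18 (P = 0.603) and rho = 0.10 (P = 0.776). The base 1133 signal was correlated with the adipocyte list (r = 0.85, P = 0.00039, adjusted P = 0.00468 over 12 probes; rho = 0.82, P = 0.00305). The 12 were the detected probes and this undetected one. The other undetected probes were left out, so the adjustment is over a picked set. For base 1133 r was 0.66 without control mice 1 and 3. Within the groups it was 0.70 with both pooled, from 0.86 among the 6 controls and -0.26 among the 5 nitrate treated mice. With the adipocyte mean as a covariate the difference was -0.12, and without control mouse 1 it was -0.25, a fold change below 1.2. The part of adipocyte RNA in this difference was not tested beyond these values.

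**Figure D3:**
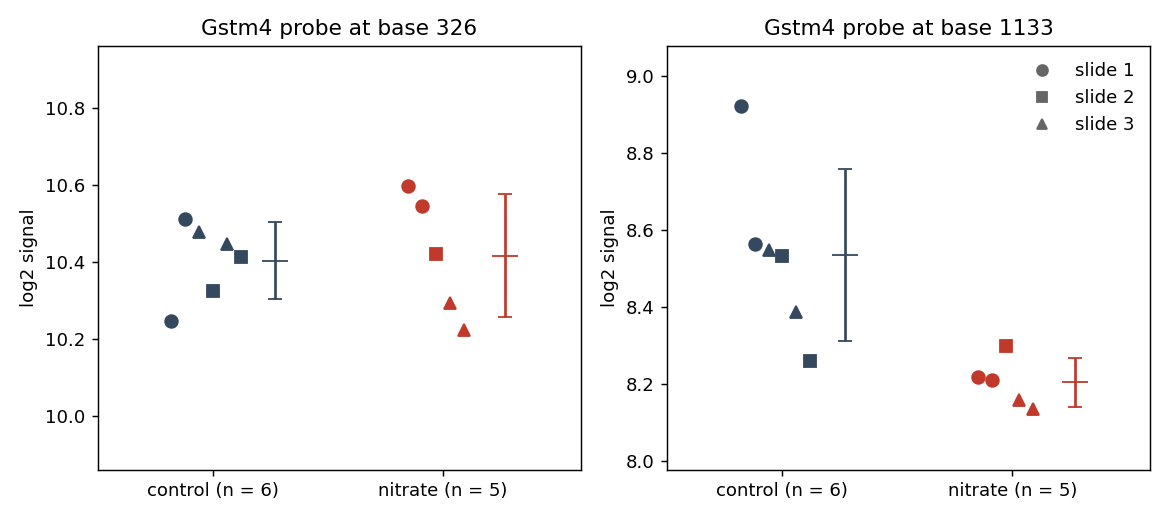
Log2 signal of the Gstm4 probes starting at base 326 and base 1133 (vertical axes, equal spans) in 6 controls and 5 nitrate treated mice. Circles, squares and triangles are slides 1, 2 and 3, and bars show means with standard deviations. At base 326 the group means are 10.40 and 10.42, and at base 1133 they are 8.54 and 8.21.

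Gstm5 differs from the rest of the class in lying on the plus strand, with its only probe at base 582 (chr3:107701101-107701160). Its enzyme is known for expression in brain and testis. Nitrate treated mice gave 10.43, 10.52, 10.47, 10.49 and 10.33. Controls gave 10.64, 10.61, 10.52, 10.55, 10.48 and 10.50. Most nitrate values lay below most controls, within a narrow range for all mice. The difference was -0.10 with a standard error of 0.06, a fold change of 1.07. The exact permutation P value was 0.0325, the limma P value 0.117 and its adjusted value 0.463. Within slides 1, 2 and 3 the difference was -0.15, -0.06 and -0.09.

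Gstm6 is read by 3 probes, and the nitrate mean was the lower at each, though at base 1092 the difference turned to 0.061 with the adipocyte mean as a covariate. At base 978 (chr3:107741880-107741939) nitrate treated mice gave 5.97, 6.24, 5.96, 6.32 and 5.87. Controls gave 6.64, 6.42, 6.31, 6.08, 6.05 and 6.34 there. Control mouse 1 was highest, and nitrate mice 2 and 4 lay among the controls. The difference was -0.24 with a standard error of 0.12 (exact permutation P = 0.102, adjusted P = 0.397 by limma). The probe passed both limits when nitrate mouse 4, control mouse 4 or control mouse 5 was left out, at differences of -0.30, -0.28 and -0.29. With the adipocyte mean as a covariate the difference was -0.06. The base 1092 probe, which was detected on 4 nitrate and 6 control arrays and so entered through the controls, differed by -0.17 with a standard error of 0.14, and by -0.27 without nitrate mouse 2 and -0.11 without control mouse 3. The base 415 probe was not detected and differed by -0.36 (exact permutation P = 0.0693), with nitrate mouse 5 at 4.24 and the other nitrate treated mice at 4.81 or above. Without nitrate mouse 5 its difference was -0.22, and without nitrate mouse 2 or control mouse 2 it was -0.43 and -0.45, past both limits. The probes at bases 1092 and 415 moved together across the mice (r = 0.78, P = 0.00349; rho = 0.86, P = 0.00131), and r was 0.73 without control mice 1 and 3. For the base 978 probe r was 0.41 with base 1092 (permutation P = 0.205) and 0.35 with base 415 (permutation P = 0.297).

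Gstm7 was read at base 395 (chr3:107732073-107733247, minus strand) and at base 941, with similar results. At base 395 nitrate treated mice gave 8.15, 8.17, 7.84, 7.63 and 7.60. Controls gave 8.15, 8.00, 7.96, 7.83, 7.71 and 7.92. Nitrate mice 1 and 2 lay at the top of all mice and nitrate mice 4 and 5 at the bottom. The difference was -0.05 with a standard error of 0.12 at base 395, and -0.06 with a standard error of 0.10 at base 941. The base 941 probe is printed at 10 spots on each array, so its values are means of repeated spots. The probes moved together across the mice (r = 0.83, P = 0.00135; rho = 0.80, P = 0.00486), and r was 0.67 without nitrate mice 4 and 5. A further 3 probes named by transcript identifiers and described as Gstm6 or Gstm7 fall outside the naming rule, and none was detected.

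Agreement between probes varied by gene. Of the 10 pairs that share a gene, 4 had an adjusted permutation P value under 0.05 for Pearson's r across the 11 mice, and 2 had one for Spearman's rho. Of the 4, 2 include a probe that was not detected, and r ran from -0.18 to 0.83 over the 10. Of 51 pairs of detected probes of different genes, 5 passed by r and 2 by rho, with r from -0.56 to 0.87. The highest was Gstm1 at base 807 with Gstm3 at base 321 (r = 0.87, P = 0.00059; rho = 0.80, P = 0.00468; r = 0.78 without nitrate mouse 5 and control mouse 1). Gstm1 at base 807 and Gstm4 at base 326 had r = 0.85 (P = 0.00102; rho = 0.73, P = 0.0147), and 0.69 without the same mice. No 2 of the probes named here share a run of 16 bases with each other or with any other probe on the array. Nitrate mouse 5 gave the lowest nitrate value at 13 of the 15 probes, and control mouse 1 the lowest control value at 7.

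The arrays lay on 3 slides, of which slides 1 and 3 each held 2 nitrate and 2 control arrays and slide 2 held 1 and 2. Slide 3 was also scanned on a later day. For Gstm3 at base 321 the nitrate minus control difference was 0.21 on slide 1, 0.13 on slide 2 and -0.19 on slide 3. For Gstm4 at base 326 it was 0.19, 0.05 and -0.20. Differences near 0 over all mice were thus means of opposite differences on separate slides for these probes. After these values were seen, a limma fit over all detected probes was made of the slide 3 difference minus the slide 1 difference. It uses the same arrays as those values and adds no support to them. The unadjusted P value passed 0.05 for 2 Mu class probes, Gstm4 at base 326 (-0.39) and Gstm3 at base 321 (-0.40), where it did for 9.57% of all. Neither passed adjustment (adjusted P = 0.494 and 0.521 by limma). With slide as a block 0 Mu class probes were called.

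**Figure D4:**
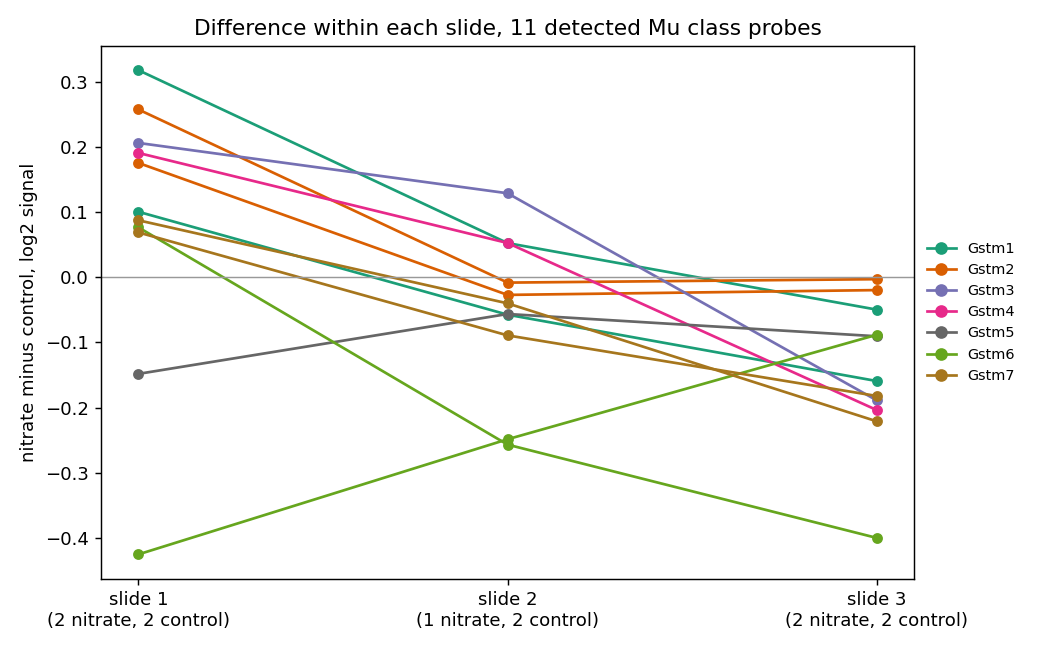
Nitrate minus control difference in log2 signal (vertical axis) within each of 3 slides (horizontal axis) for the 11 detected Mu class probes, coloured by gene. Lines join the values of 1 probe. Most lines start above 0 on slide 1 and end below 0 on slide 3, while Gstm5 and the Gstm6 probe at base 978 stay below 0 throughout.

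Smooth muscle is the main cell of the vessel wall, and Mu class probes differed in how they followed its markers. Across the 11 mice the mean of the smooth muscle list had r = 0.81 with Gstm2 at base 985 (P = 0.0112, rho = 0.55, P = 0.082) and r = 0.65 with Gstm4 at base 326 (P = 0.0188, rho = 0.55, P = 0.0825). It had r = -0.78 with Gstm4 at base 1133 (P = 0.0104, rho = -0.53, P = 0.101) and r = -0.72 with Gstm6 at base 978 (P = 0.0104, rho = -0.64, P = 0.0401). After adjustment over the same 12 probes 5 Pearson tests and no Spearman test passed 0.05. Of the 5, 1 was the undetected Gstm4 probe at base 1133. Without control mouse 1 and nitrate mouse 1 r was 0.29, 0.36, -0.38 and -0.34, so these relations rest on those mice. With the adipocyte list the base 985 probe of Gstm2 had r = -0.71 (P = 0.0149, adjusted P = 0.0597; rho = -0.58, P = 0.0652) and -0.39 without control mice 1 and 3.

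The genes whose signal was most like that of Gstm2 at base 985 over the 11 arrays, among 12207 candidates, were Myl6, Gm8213, Trpc1, Arhgdia and Armcx3. Myl6 codes for a light chain of non-muscle and smooth muscle myosin, and Trpc1 codes for a cation channel. Their r ran from 0.91 for Armcx3 to 0.92 for Myl6. Without control mouse 1 and nitrate mouse 5 r fell to 0.64 for Myl6 and 0.59 for Trpc1, and was 0.80 for Armcx3. None of the 5 was called between the groups.

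Other genes of glutathione chemistry were read from lists by role, each gene by its brightest detected probe. Of the 19 other glutathione transferases 14 were detected, and 5 were called, all lower in nitrate treated mice, where 4.62% of all detected named genes were called lower. The median difference of the 14 was -0.22 and the value was lower for 12. Gsta4, which clears the lipid aldehyde 4-hydroxynonenal, gave 7.45 to 7.87 in nitrate treated mice and 7.74 to 8.95 in controls, a difference of -0.58 with a standard error of 0.18. The groups met only at nitrate mouse 4, which lay above control mouse 6. Gsta3, another Alpha class enzyme, differed by -0.95 (standard error 0.43) and the microsomal enzymes Mgst2 and Mgst1 by -0.81 (0.26) and -0.36 (0.15). Gstz1, a step in tyrosine breakdown, differed by -0.38 (0.15). The unadjusted P values of these 5 were 0.00665 to 0.0473 and no adjusted P value was below 0.215. With 1 array left out the Gsta3 call was lost in 8 of 11 cases, without any of nitrate mice 1, 3, 4 and 5 and control mice 1, 3, 4 and 5 (difference -1.01 to -0.69), and it was lost with slide as a block, under 75th percentile scaling and with no detection filter. The Mgst1 call was lost without nitrate mouse 1 or 3 or control mouse 1, 3 or 4, and the Gstz1 call without nitrate mouse 1 or control mouse 3. Without normalization both calls were lost, and that of Mgst1 was also lost under 75th percentile scaling. With the adipocyte mean as a covariate Gsta3 differed by -0.06, while Gstz1 and Mgst1 turned to 0.066 and 0.085. The Pi class genes Gstp1 and Gstp2 differed by -0.06 and -0.02, and the Theta class gene Gstt1 by 0.046, none of them called. Gstt3, also of the Theta class, ran the other way, with every nitrate value above every control. Groups were free of overlap at 2.75% of all detected probes. Gstt3 was higher by 0.23 (standard error 0.085, adjusted P = 0.282 by limma), below the fold limit. Some of these genes have another detected probe of lower signal. Those of Gsta3 and Mgst1 differed by -1.05 and -0.40, both called, and those of Gstp1 and Gstp2 by -0.16 and -0.10, neither called. Mgst3 differed by -0.23 at its brightest probe, not called, and by -0.31 at its other, called.

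Of 17 genes of glutathione synthesis, reduction and breakdown 12 were detected and 1 was called, near the 8.89% of all detected named genes. This was Ggt7, a relative of the enzyme that splits glutathione outside the cell, higher by 0.34 (standard error 0.13). Its call was lost without nitrate mouse 2 or control mouse 1 and after normexp background correction (0.20). Ggt7 was not detected on every array, so it also drops out when detection on all 11 is required. Gclc, the catalytic subunit of the first step of synthesis, gave a difference of 0.19 (adjusted P = 0.351 by limma). Of 11 genes of conjugate export and mercapturate formation 9 were detected and 1 was called, Acy3, an aminoacylase that acts on mercapturic acids, lower by 0.30 on the log2 scale, with the call lost without nitrate mouse 2 or control mouse 1 and without normalization. The conjugate pump Abcc1 differed by 0.22 (adjusted P = 0.23 by limma), below the fold limit, and its nitrate values also all lay above the controls. Of 12 regulators 11 were detected and 2 were called, 1 in each direction (4.27% of all detected named genes were called higher). Nfe2l2, which codes for the transcription factor NRF2 of antioxidant genes, gave 10.95, 11.15, 11.22, 11.42 and 11.19 in nitrate treated mice. Controls gave 10.68 to 11.03, so the nitrate values were mostly the higher ones. The Nfe2l2 difference was 0.28 (standard error 0.094, adjusted P = 0.245 by limma), and the call was lost without nitrate mouse 4, control mouse 1 or control mouse 2, and without normalization. Ppara, a nuclear receptor that controls fat oxidation, differed by -0.45 (standard error 0.13). With the adipocyte mean as a covariate Ppara differed by -0.19 and was not called.

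In all, 9 of the 46 other listed genes that were detected were called (19.6%) and 0 of the 7 Mu class genes, where 8.89% of all detected named genes were. With the adipocyte mean as a covariate 1 of these counted genes was called, and without control mouse 1 the count was 4. Gsta4 then differed by -0.05 and Mgst2 by -0.13 under the covariate, while Nfe2l2 still differed by 0.32. The promoters of the class, from 250 bases before to 50 after each start in the RefSeq table of GRCm38, held the antioxidant response motif TGACNNNGC on either strand in 2 of 12, against 12.4% of 32851 promoters. GCGTG, the core of the site of the aryl hydrocarbon receptor, was in 3 of 12 against 32.4%, and TATAAA in 3 of 12 against 13.6%.

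**Figure D5:**
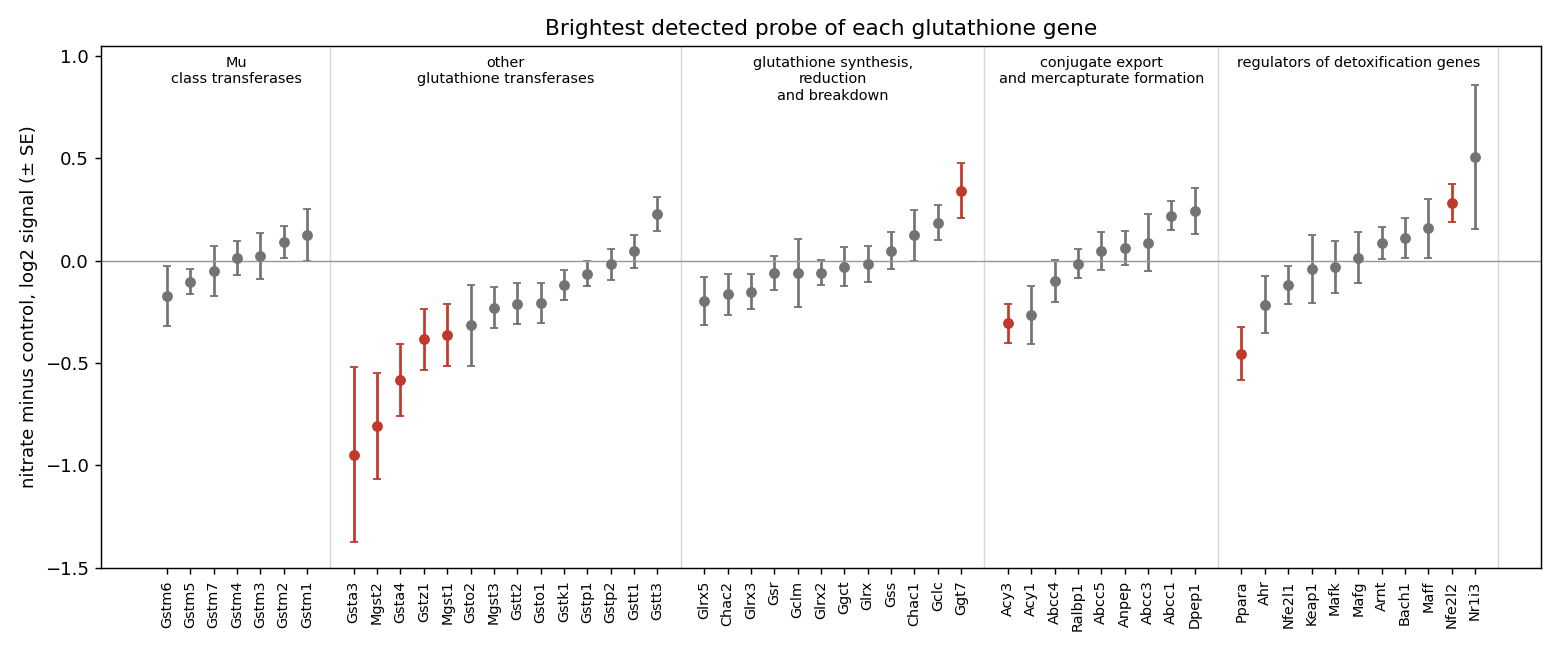
Nitrate minus control difference in log2 signal (vertical axis) with its standard error for the brightest detected probe of each gene (horizontal axis), grouped by role. Red points passed both limits of a call. None of the 7 Mu class genes is red, and the 5 red transferases of other classes all lie below 0.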

How the data were processed

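Members and gene lists were chosen with earlier results of these data known. Total RNA of 11 aortas was hybridised to one-color arrays. The authors deposited spot intensities with quality flags from Feature Extraction 10.7.1.1, background-subtracted and not normalized between arrays, and a table of processed log2 values whose columns correlated at 0.99993 or more with the matching arrays here. The labels do not name the controls' drink, and all samples share 1 treatment text.

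Processed signals below 1 were set to 1, put on the log2 scale without control and outlier-flagged spots, averaged per probe and quantile normalized. Groups were compared with lmFit and eBayes (R 4.3.3, limma 3.58.1) over all 11 arrays and adjusted over the 23632 detected probes. Undetected probes come from a fit over all probes. Single differences have two-sided exact permutation tests over 462 divisions of the mice, with a smallest P value of 0.00216. Correlations have two-sided tests with 100000 permutations (Python 3.11.15, SciPy 1.17.1), adjusted within each family of pairs. All 10 pairs of probes sharing a gene, 51 pairs of different genes and 12 probes against each of the 2 marker lists were computed. The 12 were the detected probes and the undetected Gstm4 probe at base 1133.

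The number of arrays limits the precision. In a simulated comparison of 23620 probes 200 were changed. Both limits of a call were passed by 98% of probes changed by 1 log2 unit and 95% of those changed by 0.5. A P value under 0.05 at any fold was given to 5.14% of the unchanged.

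Replicates are separate mice. Replicate numbers did not pair the samples. Named were all Mu class probes, called or bright genes of the lists, and the 5 genes most like the brightest Mu class probe. Gene names and positions (mm9) are those of the files. Alternatives covered the scaling of arrays, normexp in place of the scanner's background, an added 16 before log2, the deposited log2 values, detection rules, flagged spots, prior variance, slide and replicate number as blocks, the fold limit, the adipocyte mean as a covariate, the probe of a gene, and each array left out.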

Additional observations from a re-analysis of the deposited data

Results flagged for a closer look

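In 48 groups of mice the highest and lowest value were compared with the nearest other value. The groups were those of 24 probes, the 15 of the Mu class and those of the 9 other glutathione genes that were called. The 9 were picked by their group difference, and the chance count below takes no account of that. About 2.4 such groups lie beyond the limit by chance, and 2 did. Gstm2 at base 985 was low in control mouse 1, whose gap to the next control was 0.729 of the range of that group. Ggt7 was also low in control mouse 1, with a gap of 0.697 of the range. The same mouse had the highest adipocyte mean (0.62) and the lowest smooth muscle mean (-0.33), and the part of these in its Gstm2 and Ggt7 values was not tested.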

How the results depend on the processing

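The number of transcripts called, 2128, was 3394 with no fold limit, 1219 after normexp background correction, 3224 with no detection filter, and 1596 to 2424 with 1 array left out. Of called transcripts 46.1% were higher in nitrate treated mice, 65.3% without normalization and 35.8% after normexp. The count of Mu class probes called, 0, was 1 with no detection filter and 1 when the spot did not have to be found, which was Gstm4 at base 1133 both times. It was 0 to 1 with 1 array left out, and 0 under every other alternative run. The count of other glutathione genes, 9, was 1 with the adipocyte covariate and 4 to 11 with 1 array left out. Gstm4 at base 1133 kept its negative sign throughout and missed the limits without normalization (-0.28), with the covariate and without control mouse 1. Some signs turned, most of them of uncalled differences. Without normalization Gstm2 at base 659 was 0.015. With the covariate Gstm2 was -0.047 at base 985 and -0.13 at base 932, Gstm6 at base 1092 0.061, Gstm3 at base 321 -0.15, and Gstm4 at base 326 -0.11, while the called falls of Gstz1 and Mgst1 turned to 0.066 and 0.085. With 1 array left out Gstm1 at base 807 ran from -0.093 to 0.0051, Gstm2 at base 932 from -0.00033 to 0.078 and at base 659 from -0.099 to 0.065. Gstm3 at base 321 then ran from -0.0498 to 0.11, Gstm4 at base 326 from -0.033 to 0.0605, and Gstm7 from -0.12 to 0.018 at base 395 and from -0.15 to 0.00053 at base 941. The cause of these shifts was not tested. With the replicate number as a block, over the 5 numbers that both groups share, 2433 transcripts, 0 Mu class probes and 11 other glutathione genes were called. Samples of the same number had correlations of deviations between -0.136 and 0.18, and only number 2 correlated best with its own, so the numbers name samples and pair none. Under 75th percentile scaling, no normalization, normexp and the deposited table, 6 of 11 detected Mu class probes were lower, as in the main values.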
